A study of Mus musculus with 12 samples.

Results

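Eomes, Neurog1, Neurog2, Neurod1, Insm1, Btg2, Gadd45g, Pax6, Hes5 and Sox2, 10 genes that mark progenitors and the steps of neuron formation in the embryonic cortex, were followed in the brains of newborn mice. They were taken by symbol from the deposited tables, where each of the 10 had its own entry among 23983 entries per table, and 9 were tested by the authors in both tissues. The study sequenced 12 RNA libraries from mice at postnatal day 0, in 4 groups of 3. Cortex and subcortex came from mice labelled wild type (WT), with no allele named, and from mice labelled as a Reck vascular knockout (vKO), with the genotype Reck flex2/Δex1; Tie2Cre and a mixed strain in all groups. Tie2Cre is active in endothelial cells and in blood lineages, so the action of Cre is not limited to vessel cells. As written, the Δex1 allele does not depend on Cre and would be carried by all vKO cells, neural cells included. The labels give neither the sex nor the animal behind each library. The tables hold 1 FPKM per gene and group (fragments scaled to transcript length and to the mapped fragments of a library), so no value per library, no SD and no depth can be given, and a replicate number cannot be set beside any value. "Rose" and "fell" are kept for genes whose q-value (adjusted p) for that tissue, in the authors' deposited table, was under 0.05.

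In the embryonic cortex, radial glia divide at the ventricle and hold Sox2, Pax6 and Notch signalling, whose target Hes5 represses proneural genes. Cells that raise Neurog2 leave this state, turn on Insm1 and Eomes (Tbr2) as intermediate progenitors, and pass through Neurod1 on the way to a glutamatergic neuron. Btg2 and Gadd45g accompany the last divisions and the exit from the cycle, and both also belong to the genes that cells raise quickly under stress. Around birth this production of cortical neurons is ending, while Pax6, Eomes and Neurod1 are also used in the cerebellum, and Eomes in the olfactory bulb and in lymphocytes.

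The promoters below are shown because Neurog2 and Eomes are successive factors of this lineage that both rose in vKO cortex, while Hes5, the Notch target, was not called. Each runs from 250 bases before to 50 bases after the RefSeq transcription start on GRCm38.p6 (mm10), and capitals mark the RBPJ core TGGGAA, the letters bound by the partner of Notch, and the N-box CACNAG, bound by Hes repressors, on either strand. Neurog2 is at chr3:127632886-127633185 on the plus strand, Eomes at chr9:118477939-118478238 on the plus strand and Hes5 at chr4:154960673-154960972 on the plus strand.
Neurog2: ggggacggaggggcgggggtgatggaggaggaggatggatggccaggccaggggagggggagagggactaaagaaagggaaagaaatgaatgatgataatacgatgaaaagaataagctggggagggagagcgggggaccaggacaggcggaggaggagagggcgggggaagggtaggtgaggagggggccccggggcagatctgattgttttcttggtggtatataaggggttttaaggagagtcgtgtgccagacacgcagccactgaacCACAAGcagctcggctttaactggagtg
Eomes: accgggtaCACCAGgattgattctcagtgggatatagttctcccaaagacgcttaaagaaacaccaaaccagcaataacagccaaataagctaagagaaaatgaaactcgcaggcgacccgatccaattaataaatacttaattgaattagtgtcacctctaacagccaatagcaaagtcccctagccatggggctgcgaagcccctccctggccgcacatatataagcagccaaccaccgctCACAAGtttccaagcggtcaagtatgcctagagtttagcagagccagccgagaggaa
Hes5: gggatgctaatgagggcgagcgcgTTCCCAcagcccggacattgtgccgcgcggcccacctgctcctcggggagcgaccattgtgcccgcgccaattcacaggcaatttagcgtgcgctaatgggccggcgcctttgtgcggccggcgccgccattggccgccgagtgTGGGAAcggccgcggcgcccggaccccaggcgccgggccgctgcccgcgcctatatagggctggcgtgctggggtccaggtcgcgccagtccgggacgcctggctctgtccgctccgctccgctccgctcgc
The Hes5 sequence holds 2 RBPJ cores, starting at positions 25 and 169 of the printed run, and no N-box. The Neurog2 sequence holds 1 N-box, at position 273, and the Eomes sequence 2, at positions 9 and 244, and neither holds an RBPJ core. Of 32851 promoters of 300 bases, 25.6% held at least 1 RBPJ core, 3.79% held 2 or more and 42.5% held an N-box. RefSeq promoters were matched for 9 members, all but Insm1: 3 held an RBPJ core (Btg2, Gadd45g and Hes5), 5 an N-box (Eomes, Gadd45g, Neurod1, Neurog2 and, at its second start, Pax6), and 6 an E-box CANNTG, the general bHLH motif, against 72.3% of all promoters. None of the 9 held CAGATG, the E-box form preferred by neurogenins and NeuroD factors, which 17.2% of all promoters hold and which is counted among the E-boxes too. These matches describe letters in a window and not bound sites.

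In WT cortex the level per transcript length was highest for the progenitor genes Sox2, at 28.4 FPKM, and Hes5, at 25.2 FPKM. Insm1, a zinc finger factor of basal progenitors, had 11.6 FPKM and Neurod1 11.0 FPKM. Gadd45g had 7.66 FPKM, Pax6 6.34, Eomes 5.48, Btg2 4.56 and Neurog2 4.03. Neurog1, the relative of Neurog2, was the lowest, at 0.0213 FPKM (vKO 0.0264), with 0.151 and 0.0775 FPKM in WT and vKO subcortex, and was too low to be tested by the authors. Without replicate values it cannot be said which neighbours in this order differ beyond their spread. The order in vKO cortex differed in 2 places: Neurod1 stood above Insm1, and Btg2 above Eomes.

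WT cortex and WT subcortex differed in which members they held most of, though the tables of the tissues were made separately and no test between tissues was run. Neurog2, Insm1 and Eomes were the cortical members, at 4.03, 11.6 and 5.48 FPKM against 1.51, 5.02 and 2.48 in WT subcortex. Neurod1, Gadd45g, Sox2 and Btg2 had cortex levels of 0.894, 0.984, 0.895 and 0.835 times those of subcortex. Pax6 and Hes5 were higher in WT subcortex, Pax6 at 11.9 FPKM against 6.34 in cortex and Hes5 at 41.6 against 25.2. The subcortex libraries also held genes of the cerebellum and rhombic lip, with Zic1 at 56.9 FPKM, En2 at 10.1 and Barhl1 at 7.50 in WT, against 19.9, 0.0325 and 0.112 in WT cortex. The labelled tissues kept their regional factors, with Emx1 at 13.3 FPKM in WT cortex and 0.106 in WT subcortex, and Tcf7l2 at 4.71 and 37.0.

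**Figure D1:**
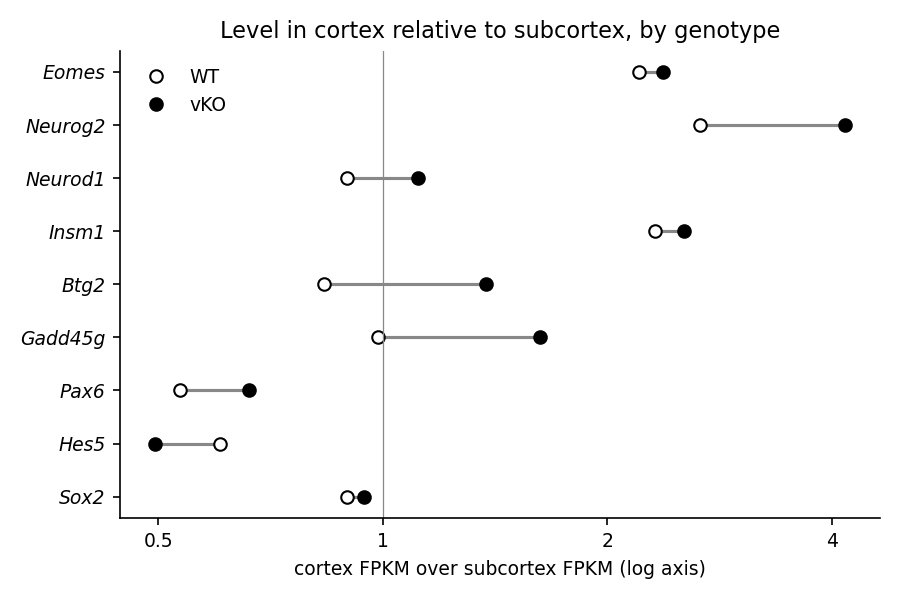
Cortex FPKM divided by subcortex FPKM of the same genotype (log axis) for the 9 tested members, open points for WT and filled points for vKO. Neurog2, Insm1 and Eomes lie above 2 in both genotypes, and Neurod1, Btg2 and Gadd45g go from below 1 in WT to above 1 in vKO. These positions hold for the FPKM as deposited. The summed FPKM was 432837 in cortex and 496410 in subcortex for WT, and 504669 and 462792 for vKO. Making these totals equal would shift the ratios of the 2 genotypes in opposite directions, so the crossings of 1 depend on the scale.

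Cortex of the vKO genotype was set against WT cortex to see which RNAs differ between them. Of the 9 tested members, 5 rose and 0 fell in vKO cortex by the authors' deposited table: Neurog2, Eomes, Neurod1, Btg2 and Gadd45g. These 5 rose 1.37 to 1.80 times. Insm1, which like Eomes is a factor of intermediate progenitors, and the radial glia genes Sox2, Hes5 and Pax6 were not called, though the 1.34 times of Pax6 lies close to the 1.37 times of Neurod1. Of all 13594 tested genes, 19.5% were called in cortex, 8.15% as higher and 11.3% as lower, and among the members 55.6% were called higher. A vKO value above the WT value was found for 8 of the 9, and for 50.4% of all tested genes. In these whole-tissue samples, more cells of a type and more RNA per cell cannot be told apart. The members were chosen with earlier results of these data known, so their count describes them and tests no more than each gene's own q-value.

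Neurog2, the proneural factor (chromosome 3, 127633145 to 127635631, 2 exons), rose from 4.03 FPKM in WT to 6.35 in vKO cortex, 1.58 times (q = 0.0184, the authors' deposited table). Eomes, the factor of intermediate progenitors (chromosome 9, 118478189 to 118486132, 6 exons), went from 5.48 to 8.18 FPKM, 1.49 times (q = 0.00445, the authors' deposited table). Neurod1, the bHLH factor of differentiating neurons (chromosome 2, 79452641 to 79456636, 2 exons), rose from 11.0 to 15.0 FPKM, 1.37 times (q = 0.0334, the authors' deposited table). This was the highest q-value of the 5 called genes and, by the FPKM as deposited, the smallest rise. Its exons share 201 bases with transcripts annotated to the neighbouring gene Cerkl on the same strand, so the assignment of those reads is uncertain. Insm1 had 11.6 FPKM in WT and 13.9 in vKO (q = 0.267, the authors' deposited table), and was not called.

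By the FPKM as deposited, the cycle exit genes had the largest rises of the 5, while with the trend of ratios over transcript length removed Gadd45g had the smallest. Btg2, an antiproliferative cofactor of transcription and RNA decay (chromosome 1, 134074865 to 134079155, 2 exons), rose from 4.56 to 8.21 FPKM, 1.80 times (p = 5e-05 and q = 0.000806, the authors' deposited table). That p-value is the lowest the deposited test lists. Gadd45g, a growth arrest protein (chromosome 13, 51846675 to 51848474, 4 exons), rose from 7.66 to 13.1 FPKM, 1.71 times (q = 0.00492, the authors' deposited table). Both started near the level that subcortex holds in WT, 5.46 FPKM for Btg2 and 7.78 for Gadd45g, and ended above it.

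The genes of the progenitor state did not pass the threshold. Pax6, the paired box factor of radial glia (chromosome 2, in a table interval from 105536080 to 105697364 that also covers Pax6os1 and Paupar), had 6.34 FPKM in WT and 8.48 in vKO, 1.34 times (p = 0.0203 and q = 0.0843, the authors' deposited table). Its antisense neighbour Pax6os1 stood at 0.146 and 0.103 FPKM. Sox2, the stem cell factor (chromosome 3, 34650405 to 34652461 in the annotation), is a single exon inside an intron of Sox2ot on the same strand. Its table interval, 34560381 to 34677993, is also the one listed for Sox2ot. Sox2 had 28.4 and 30.9 FPKM (q = 0.697, the authors' deposited table). Sox2ot had 11.7 FPKM in WT and 10.7 in vKO. Hes5 (chromosome 4, 154960923 to 154962371, 3 exons) had 25.2 FPKM in WT and 23.8 in vKO, the 1 tested member with a lower value in vKO cortex (q = 0.803, the authors' deposited table). An antisense transcript, Gm20421, overlaps 433 exonic bases of Hes5. Genes on the opposite strand also overlap exons of the called members Eomes (Gm33460, 118 bases) and Neurod1 (Gm26755, 154 bases). No source used here says whether the authors counted by strand. A q-value over the threshold does not show that Pax6, Sox2, Hes5 or Insm1 was equal between genotypes.

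**Figure D2:**
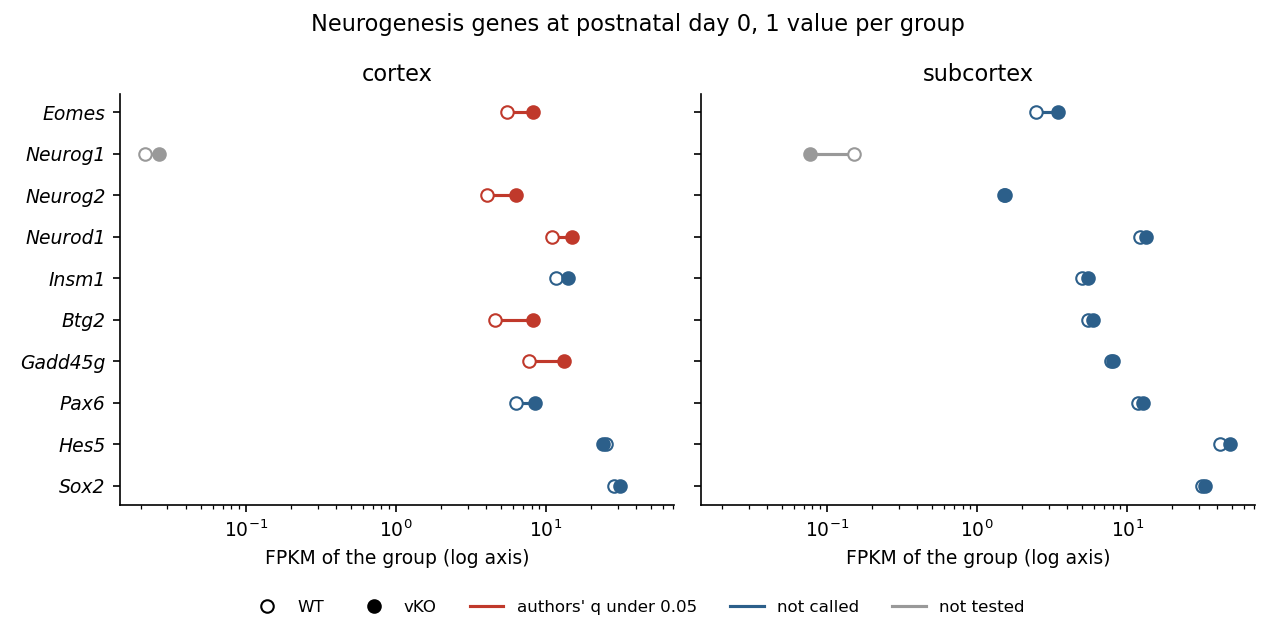
FPKM per group (log axis) of the 10 genes in cortex (left) and subcortex (right), open points for WT and filled points for vKO, 1 value per group. In cortex the filled points of Eomes, Neurog2, Neurod1, Btg2 and Gadd45g lie to the right of the open ones and are called (red), and in subcortex no gene is called.

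Within a group, the levels of 2 members can be set against each other on the scale per transcript length, as a description with no test. Neurog2 stood at 0.160 times Hes5 in WT cortex and at 0.267 times in vKO cortex. Eomes stood at 0.193 times Sox2 in WT cortex and 0.264 times in vKO cortex, and at 0.863 and 0.965 times Pax6. The levels of Neurog2 and Eomes kept nearly the same proportion to each other, 0.736 in WT and 0.776 in vKO cortex, as did Eomes and Neurod1, 0.499 and 0.545. The proportion of Neurog2 to Hes5 changed 1.66 times between the genotypes and that of Eomes to Sox2 1.37 times, while that of Eomes to Pax6, at 1.12 times, changed about as little as that of Eomes to Neurod1, at 1.09 times. In subcortex Neurog2 stood at 0.0364 times Hes5 in WT and 0.0317 times in vKO, a change of 0.870 times. The proportion of Eomes to Sox2 changed 1.34 times there, about as in cortex, and that of Eomes to Pax6 1.29 times, more than in cortex. The proportion of Neurog2 to Eomes changed 0.726 times in subcortex, and that of Eomes to Neurod1 1.27 times.

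Transcript length moved with the cortex ratios of all genes. The ratio, log2((vKO FPKM + 1)/(WT FPKM + 1)), was lower for longer transcripts (Spearman correlation -0.551 across 12935 genes, which are not independent replicates), and in subcortex the correlation was 0.022. The tested members have transcripts of 1071 (Gadd45g) to 4427 (Pax6) bases, and among the 8173 tested genes in that range 8.74% were called higher and 4.83% lower in cortex (6.55% higher among those that also had a WT FPKM in the members' range), with a median ratio of 0.08 against 0.00 over all tested genes. The members' median ratio was 0.42, and 0.37 after subtraction of the median ratio of genes of similar length. Gadd45g, the shortest, was the member whose rise shrank most, from 0.70 to 0.36, in a length bin where 27.0% of genes were called higher. This left Gadd45g with the smallest ratio of the 5 called members. Btg2 kept 0.68 of 0.73, Eomes 0.52 of 0.50, Neurog2 0.44 of 0.55 and Neurod1 0.37 of 0.42. Pax6, the longest, went from 0.37 to 0.48, while Hes5 went from -0.08 to -0.35 and Sox2 from 0.12 to -0.02. The part of length in each rise beyond these values was not tested.

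**Figure D3:**
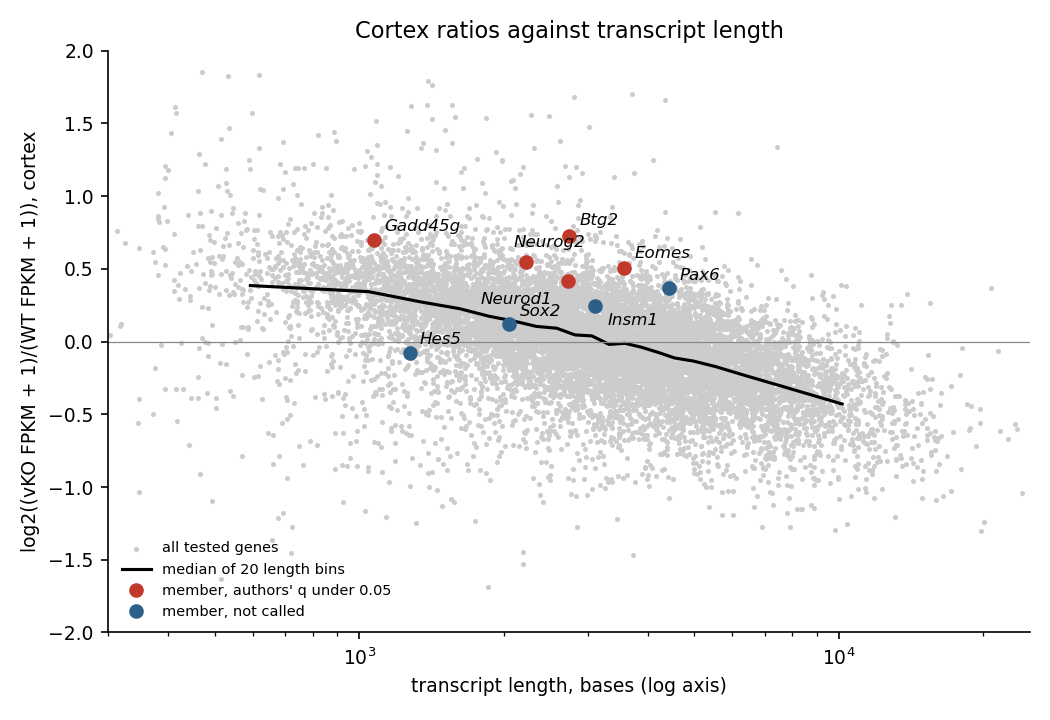
Cortex log2 ratio with 1 FPKM added against transcript length (log axis) for tested genes (grey), with the median of 20 length bins (black line) and the members named, red where called. The 5 called members lie above the line, Hes5 below it and Sox2 close to it, and 181 of 12935 genes lie outside the axes.

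The summed FPKM of the vKO cortex column was higher than that of WT, 504669 against 432837, and rescaling both to the same total shifted the median ratio of all tested cortex genes from 0.00 to -0.20. Under that scaling the 5 called members had ratios of 0.58 for Btg2, 0.52 for Gadd45g, 0.40 for Neurog2, 0.33 for Eomes and 0.22 for Neurod1. Insm1 stood at 0.04, Pax6 at 0.18, Sox2 at -0.10 and Hes5 at -0.29. The median of the members was 0.22 on this scale, 0.42 above that of all tested genes.

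The same contrast was made in subcortex. None of the 9 tested members was called there by the authors' deposited table, in which 0.714% of 13735 tested genes were called, 0.451% as higher and 0.262% as lower. At an unadjusted p-value under 0.05 there was 1 member in the authors' deposited table, against 6.31% of all tested genes; in cortex there were 6 members, against 32.1%. All 9 tested members had a vKO value above the WT value in subcortex, by 1.01 to 1.39 times, as did 49.8% of all tested genes.

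Eomes had the largest subcortex ratio, 2.48 FPKM in WT and 3.45 in vKO, 1.39 times (p = 0.0251 and q = 0.618, the authors' deposited table). Hes5 followed, with 41.6 and 48.2 FPKM. Neurog2, which rose in cortex, had 1.51 FPKM in WT and 1.52 in vKO subcortex. Btg2 had 5.46 and 5.97 FPKM, Gadd45g 7.78 and 8.04, and Neurod1 12.3 and 13.4. Insm1 had 5.02 and 5.49 FPKM, Pax6 11.9 and 12.8, and Sox2 31.7 and 32.8. The log2 ratio in cortex exceeded that in subcortex by 0.66 for Gadd45g, 0.62 for Btg2, 0.54 for Neurog2, 0.30 for Neurod1 and 0.15 for Eomes, and for Hes5 it was lower by a difference of -0.28. The direction for Eomes turned and that for Neurod1 all but vanished with the totals made equal, where Eomes had a ratio of 0.33 in cortex and 0.49 in subcortex and Neurod1 0.22 in each. The members' medians were then 0.22 in cortex and 0.21 in subcortex, against 0.42 and 0.11 as deposited, beside medians of all tested genes of -0.20 and 0.09. Whether the response differed between the tissues was not tested, since no value per library was used.

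Among other genes of intermediate progenitors, the authors' deposited table called 1 higher and 1 lower of 8 tested in cortex. An unadjusted p-value under 0.05 was listed for 5 of the 8. Over all tested cortex genes the shares were 8.15% higher, 11.3% lower and 32.1% with an unadjusted p-value under 0.05. At a q threshold of 0.10 the calls in this list were 3 higher and 1 lower. Whether this list differed from the members was not tested. Their median ratio was 0.17 against 0.00 over all tested genes, and -0.04 with the totals made equal. Mfng, a glycosyltransferase that modifies Notch receptors, rose from 4.59 to 6.93 FPKM (q = 0.0269, the authors' deposited table). Kif26b, a kinesin with a transcript of 13749 bases, fell from 14.9 to 10.5 FPKM (q = 0.00727, the authors' deposited table), and its ratio was -0.04 with the length trend removed. The Notch ligand Dll1 had 8.47 FPKM in WT and 7.68 in vKO, Dll3 2.17 and 3.28, and Hes6, a Hes relative that favours differentiation, 35.7 and 45.8, none of them called in the authors' deposited table. Proneural and patterning factors of other regions had 0 of 4 called in the authors' deposited table for cortex and 0 at an unadjusted p-value under 0.05. Dlx1, a homeobox factor of ventral forebrain, had 26.8 FPKM in WT and 24.0 in vKO cortex.

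Of 13 tested genes of Notch signalling, the authors' deposited table called 1 higher and 3 lower in cortex, beside 8.15% and 11.3% of all tested genes. The median ratio of the 13 was -0.14, or -0.01 with the length trend removed and -0.36 with the totals made equal. Hes1, the other main Hes repressor of progenitors, rose from 4.91 to 8.01 FPKM (q = 0.0129, the authors' deposited table), while Hes5 was not called. The receptors Notch1 and Notch2 fell to 6.31 FPKM (WT 9.04) and 6.64 FPKM (WT 9.33), and the coactivator Maml1 to 3.06 FPKM (WT 4.64), calls of the authors' deposited table. With the length trend removed their ratios were -0.03, -0.01 and -0.30, and that of Hes1 went from 0.61 to 0.33. In subcortex the authors' deposited table called 0 of 13, beside 0.714% of all tested genes. At an unadjusted p-value under 0.05 there were 0 of 13, against 6.31% of all tested genes.

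Among 16 other genes of radial glia, the authors' deposited table called 4 higher and 3 lower in cortex, beside 8.15% and 11.3% of all tested genes. The median ratio of the 16 was 0.02, or -0.0009 with the length trend removed and -0.19 with the totals made equal. Vim, an intermediate filament, rose from 99.9 to 171 FPKM. Emx2, a cortical patterning factor, rose from 2.59 to 4.79 FPKM, a call of the authors' deposited table. Ptprz1, a receptor phosphatase, fell from 76.4 to 41.1 FPKM and the matrix protein gene Tnc from 52.5 to 32.2 by the same table. Their transcripts have 8068 and 7106 bases, in a length bin where 36.8% of genes were called lower. With the length trend removed the ratio of Ptprz1 went from -0.88 to -0.58 and that of Tnc from -0.69 to -0.39. Sox3, the close relative of Sox2, rose from 1.58 to 3.04 FPKM (q = 0.0116, the authors' deposited table), and Sox9, a factor of radial glia and astrocytes, fell from 7.26 to 4.62 with a q-value of 0.00202. In subcortex 0 of 13 tested were called in the authors' deposited table, beside 0.714% of all tested genes. At an unadjusted p-value under 0.05 there were 2, against 6.31% of all tested genes. They were Emx2, at 2.18 FPKM in WT and 1.39 in vKO, and the progenitor filament gene Nes, at 13.6 and 10.6.

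Genes of the cell cycle, inhibitors of the cycle included, were higher in vKO cortex in part. The authors' deposited table called 6 of 13 higher and 0 lower in cortex, beside 8.15% and 11.3% of all tested genes. The inhibitor gene Cdkn1b is among the 6. The median of the 13 was 0.46, or 0.43 with the length trend removed and 0.24 with the totals made equal. Cdk1, the mitotic kinase, rose from 5.32 to 9.35 FPKM, Ccnb2 from 5.21 to 9.27 and the replication clamp Pcna from 56.5 to 82.1. Top2a, a topoisomerase of dividing cells, rose from 17.1 to 23.9 FPKM (q = 0.008, the authors' deposited table). Cdkn1b, the inhibitor p27 that holds cells out of the cycle, rose from 35.1 to 48.6 FPKM as well (q = 0.0101, the authors' deposited table). Mki67, the proliferation marker, had 11.3 and 12.0 FPKM and was not called. Its transcript has 10061 bases, and its ratio of 0.08 became 0.51 with the length trend removed. In subcortex the authors' deposited table called 0 of 13, beside 0.714% of all tested genes, and the median of the 13 was 0.02. At an unadjusted p-value under 0.05 there were again 0, against 6.31% of all tested genes.

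Genes of newborn cortical neurons, the products of this lineage, numbered 1 higher and 5 lower among 12 in cortex by the authors' deposited table. The shares of all tested genes were 8.15% and 11.3%. The median ratio of the 12 was -0.10, or 0.00 with the length trend removed and -0.32 with the totals made equal. Neurod6, a bHLH factor downstream of Neurod1, rose from 98.3 to 168 FPKM, and Dcx, a microtubule protein of migrating neurons with a transcript of 9074 bases, fell from 157 to 98.7. The layer factor Bcl11b fell to 26.5 FPKM in vKO (WT 40.7), a call of the authors' deposited table. Tbr1, the factor that follows Eomes in the lineage, had 29.0 FPKM in WT cortex against 22.2 FPKM in vKO (q = 0.0528, the authors' deposited table). Neurod2 had 58.9 FPKM in WT cortex and 71.3 in vKO, and Tubb3 1206 and 1377, neither called.

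**Figure D4:**
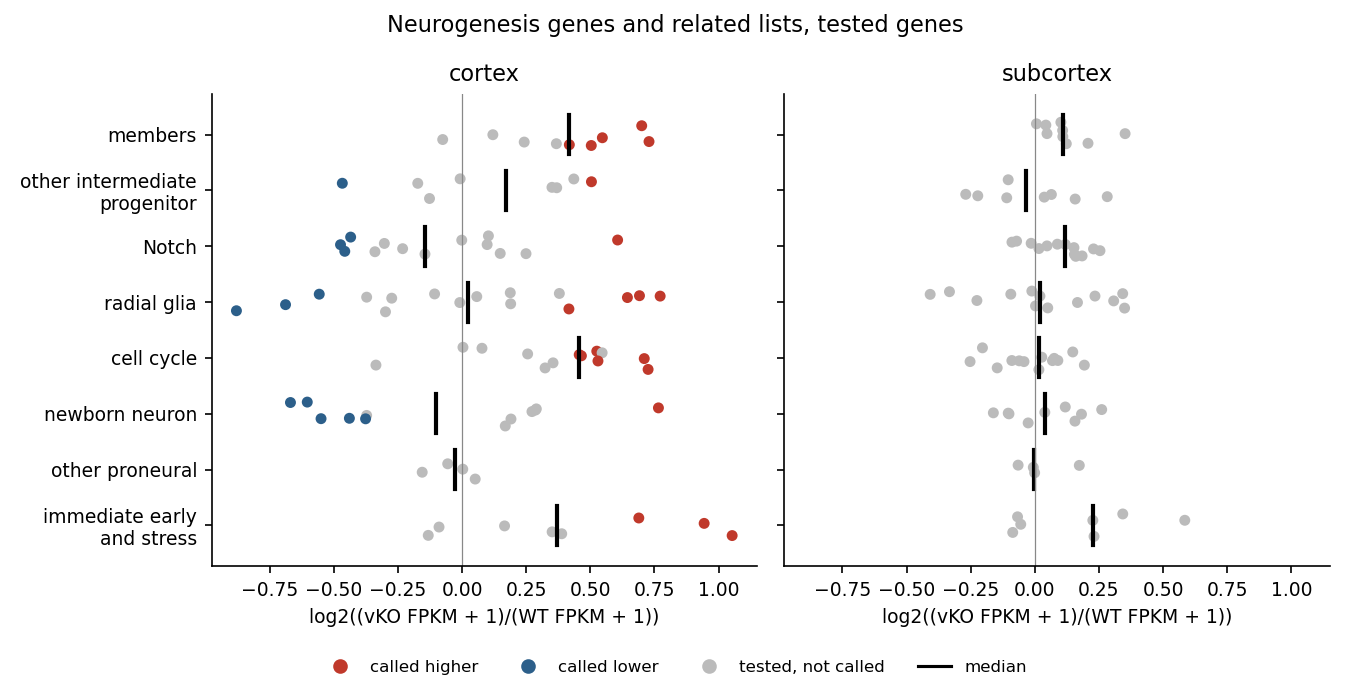
Log2 ratio with 1 FPKM added for each tested gene of the 10-gene set and of 7 related lists, in cortex (left) and subcortex (right), with the median as a black bar and calls of the authors' table in red (higher) and blue (lower). In cortex the members and the cell cycle genes have called genes on the right side only, with medians of 0.42 and 0.46, as have the immediate early genes, and the other intermediate progenitor, Notch, radial glia and newborn neuron genes on both sides.

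Markers of other cells that use these genes were read beside the result. Of 6 markers of natural killer and T cells, which use Eomes, none was high enough to be tested, and their FPKM summed to 1.07 in WT and 0.652 in vKO cortex, mostly Tbx21, which mitral cells of the olfactory bulb share. Ncr1 and Klrb1c, which define natural killer cells, were listed at 0 in both cortex groups, and Cd3e of T cells stood at 0 in WT and 0.0175 FPKM in vKO. The 3 markers of mitral and tufted cells of the olfactory bulb summed to 11.5 FPKM in WT cortex and 10.2 FPKM in vKO. Of all tested cortex genes, 19.5% were called and 32.1% had an unadjusted p-value under 0.05. Of the 2 tested markers, 0 were called and 1 had such a p-value in the authors' deposited table. It was Cdhr1, at 5.81 and 4.23 FPKM, while Doc2g had 4.85 in WT and 5.36 in vKO. Of 4 Cajal-Retzius genes 2 fell in cortex by the authors' deposited table, as did 11.3% of all tested genes. Reln fell from 50.5 to 26.4 FPKM and Trp73 from 1.99 to 1.18. With the length trend removed the ratio of Reln went from -0.91 to -0.48 and that of Trp73 from -0.46 to -0.33. Calb2, at 22.95 FPKM in WT and 24.15 in vKO, and Lhx5, at 1.055 and 1.251, were not called. The 5 cerebellar and rhombic lip markers summed to 20.6 FPKM in WT and 22.6 in vKO cortex, nearly all Zic1, with Atoh1 at 0.0152 in WT and listed at 0 in vKO. They summed to 79.1 and 85.5 FPKM in subcortex. The subcortical factors Tcf7l2 and Lhx9 fell in the cortex libraries, Tcf7l2 to 1.07 FPKM (WT 4.71) and Lhx9 to 2.28 FPKM (WT 3.76), and their list of 6 summed to 11.9 in WT and 6.46 in vKO. The part of this difference in regional markers in the rises of the members was not tested.

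Immediate early and stress genes, the class that Btg2 and Gadd45g also belong to, numbered 3 higher and 0 lower of 8 tested in cortex in the calls of the authors' deposited table. The shares of all tested cortex genes were 8.15% and 11.3%. The median of the 8 was 0.37. Fos rose from 0.989 to 3.13 FPKM, Ier2 by a log2 ratio of 0.94 to 6.70 FPKM and Junb from 3.77 to 6.69. In subcortex 0 of 7 tested were called in the authors' deposited table, beside 0.714% of all tested genes. At an unadjusted p-value under 0.05 there was 1, against 6.31% of all tested genes. It was Ier2, at 2.69 FPKM in WT and 4.53 in vKO (q = 0.323 in that table). Gadd45a and Gadd45b, the relatives of Gadd45g, had 2.44 and 1.36 FPKM in WT and 2.86 and 2.08 in vKO, and the p53 targets Cdkn1a and Mdm2 4.15 and 17.1 in WT and 3.70 and 16.0 in vKO, none of them called. Genes of microglia, 4 of 5 risen, and of red blood cells, 2 of 4 tested entries risen, moved in cortex as well by the authors' deposited table, from summed levels of 34.6 to 87.2 and of 295 to 4858 FPKM. The part of these cells and of the immediate early response in the rise of Btg2 and Gadd45g was not tested. Reck, the targeted gene, had 2.91 (WT) and 3.23 FPKM (vKO) in cortex and 2.37 and 3.49 in subcortex. Neither was called in the authors' deposited table (p = 0.0072 and q = 0.333 in subcortex). As the genotype is written, flex2 would need Cre, while Δex1 would be carried by all cells. A value over the whole gene in whole tissue does not check the change in either allele.

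Over the 4 group values, the genes with profiles closest to that of Eomes were sought among 13165 genes tested in both tissues with at least 1 FPKM in a group, by the Euclidean distance between log2(FPKM + 1) profiles centred on their own means. The 5 nearest were Junb (0.17), 6430573F11Rik (0.18), Tradd (0.20), Cdkn1b (0.20) and Sox4 (0.21). Junb had 3.77, 6.69, 1.95 and 2.74 FPKM in WT cortex, vKO cortex, WT subcortex and vKO subcortex, and Sox4, a factor of young neurons, had 143, 186, 77.0 and 82.0. Among the members Insm1 was nearest to Eomes, at a distance of 0.30 and rank 21, then Neurog2, at 0.39 and rank 55. Gadd45g came at rank 793, Btg2 at 2673, Neurod1 at 3937 and Sox2 at 6824, while Pax6 at 11947 and Hes5 at 12477, the members with the lowest cortex levels relative to subcortex among those ranked, were the farthest. With 4 values per gene this order is a description of the group values.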

How the data were processed

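RNA of cortex and subcortex was sequenced after a stranded total RNA preparation, per the labels' protocols. The submitters' processing notes name mm10, HISAT2 2.0.1, Cufflinks 2.2.1 and Cuffdiff, and no source used here gives the annotation. Each FPKM is the authors' value for a whole group, per the file headers, and the p-values and q-values come from the test that the authors deposited. The group letters W and M of the tables were read as WT and vKO. The column of log2 ratios was not used, since some cells hold error text.

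Ratios were computed here from the deposited FPKM with a pseudocount of 1, in Python 3.11.15 with pandas 2.3.3. Calls use q under 0.05 over all tested genes of a table. Transcript lengths are those of the longest coding transcript in GENCODE M21 (the same build), and the length trend is the median ratio of 20 bins. The adjustment and the trend were tested on simulated data. Named genes are the members, up to 4 called genes per list with the lowest q (or the 2 highest in FPKM), Reck and the 5 nearest to Eomes. The others (Emx1, Barhl1, En2 and Atoh1 in cortex, Sox2ot, Pax6os1, Dll1, Dll3, Hes6, Nes, Sox3, Sox9, Mki67, Tbr1, Neurod2, Tubb3, Ncr1, Klrb1c, Cd3e, Calb2, Lhx5, Otx2, Irx3, Gadd45a, Gadd45b, Cdkn1a and Mdm2) were chosen after their values were seen. Values of some list genes are not reported here. Members and lists were chosen with earlier results of these data known. Alternatives were other q thresholds, a minimum fold, a filter on low values, pseudocounts and scalings. Where replicates are not said to be separate animals, p-values may measure technical spread only.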

Additional observations from a re-analysis of the deposited data

How the results depend on the processing

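No paired analysis was possible because the tables hold 1 value per group, and for the same reason leaving out each replicate was not run, and depth is unknown. Of the 5 cortex calls, 3 were left at a q threshold of 0.01 (Eomes, Btg2 and Gadd45g) and 3 with a minimum of 1.5-fold in the FPKM ratio (Neurog2, Btg2 and Gadd45g), because both are stricter. At 0.10 there were 6, with Pax6 added, with p adjusted again over genes of at least 1 FPKM 5, and with p adjusted over both tables together 4, without Neurod1. In subcortex 0 members were called under each of these 5 alternatives. The members' median ratio in cortex, 0.42 as reported, was 0.45 with a pseudocount of 0.1 and 0.45 with 0.01, 0.22 with the totals made equal, 0.41 centred on all tested genes and 0.37 with the length trend removed. In subcortex, 0.11 as reported, it was 0.13 with either smaller pseudocount and 0.21 with the totals made equal. Sox2 in cortex, not called, went from 0.12 to -0.10 with the totals made equal and to -0.021 with the length trend removed, and no other tested member changed direction under these settings in either tissue.

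Among the other lists in cortex, added after the data were seen, medians changed sign for the other intermediate progenitor genes (-0.036 with equal totals), radial glia (-0.19 with equal totals and -0.0009 with the length trend removed) and newborn neurons (0.0033 with the length trend removed). The cerebellar markers had only 1 tested gene in cortex, Zic1, so no median of a set exists. Its ratio went from 0.15 to -0.062 with equal totals.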
